A study of Caenorhabditis elegans with 2 samples.

Results

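The autosomal intronic peaks of MEP-1 are the 500 sites, of 4904 in the deposited reproducible list for Caenorhabditis elegans, whose summit lies within a protein-coding gene on an autosome but outside every exon and every promoter window. Promoter windows covered the 1000 bp before and the 200 bp after the 5′ end of each protein-coding transcript in Ensembl, and 72 further intronic summits within 200 bp of a tRNA or snoRNA gene were left out. The members made up 12.5% of the 4003 autosomal peaks, against 2364 in promoter windows, 886 between genes, 64 in exons and 189 beside tRNA or snoRNA genes. No measured value entered the choice beyond the authors' own peak calling. Chromatin immunoprecipitation with sequencing was performed against eGFP-tagged MEP-1 in L1 larvae of strain OP102. Its genotype is unc-119(tm4063) III; wgIs102, so both libraries come from the same unc-119 mutant background, and wgIs102 is the integrated transgene recorded for mep-1. The study comprised 2 biological replicates of this 1 group, of whole animals with the sexes pooled, at an age recorded as unknown. Every cell type of the larva was therefore mixed, and a site bound in a few cells cannot be told apart from a site bound weakly in many.

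MEP-1 is a zinc finger protein that works with LET-418, a Mi-2 type chromatin remodeller, in the MEC complex, and it is known for keeping germline genes silent in somatic cells. Introns of C. elegans are mostly very short, and the long ones, often near the 5′ end of a gene, can hold enhancers and internal promoters. Because many worm transcripts are trimmed and joined to a spliced leader, the annotated 5′ end of a gene can lie downstream of the place where transcription starts.

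Sequence is shown for the 8 members with the highest signal, to show the letters under the strongest sites, and for 2 of the lowest as a contrast. Members on the first-numbered autosome are not shown. Each run holds 121 bases of the plus strand centred on the summit, from the RefSeq assembly of WBcel235 (ce11). Capitals mark matches, on either strand, to 5 words of 6 bases that came from earlier results on these peaks, and to the repeat GAGAGA. The words are GACGCA with its overlapping neighbour ACGCAG, then CGTCTC, and in addition ACGCGC together with GAGCGC. Each line gives the host gene and the interval.
epg-9, chrIV:2602084-2602204: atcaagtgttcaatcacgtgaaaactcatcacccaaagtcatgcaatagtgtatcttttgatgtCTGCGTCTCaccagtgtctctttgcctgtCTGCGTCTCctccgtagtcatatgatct
Y111B2A.12, chrIII:12612584-12612704: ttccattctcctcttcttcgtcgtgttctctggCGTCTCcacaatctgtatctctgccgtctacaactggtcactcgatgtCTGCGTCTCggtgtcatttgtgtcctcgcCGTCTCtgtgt
W06H8.6, chrV:6224507-6224627: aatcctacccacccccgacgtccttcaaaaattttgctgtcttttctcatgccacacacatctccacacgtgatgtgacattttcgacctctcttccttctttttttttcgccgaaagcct
mnk-1, chrII:10552048-10552168: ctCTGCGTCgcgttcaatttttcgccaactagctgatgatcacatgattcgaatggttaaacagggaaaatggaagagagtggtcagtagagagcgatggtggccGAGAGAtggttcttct
dhc-4, chrIII:10989591-10989711: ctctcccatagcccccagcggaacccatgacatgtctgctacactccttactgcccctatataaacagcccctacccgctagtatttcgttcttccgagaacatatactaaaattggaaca
nhr-19, chrII:9603572-9603692: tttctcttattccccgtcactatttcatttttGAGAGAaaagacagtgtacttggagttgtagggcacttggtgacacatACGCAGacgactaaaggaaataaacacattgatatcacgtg
larp-1, chrIII:5014143-5014263: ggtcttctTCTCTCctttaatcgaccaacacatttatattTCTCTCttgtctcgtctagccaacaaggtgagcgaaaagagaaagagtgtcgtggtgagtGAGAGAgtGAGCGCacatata
Y43F8B.2, chrV:19529335-19529455: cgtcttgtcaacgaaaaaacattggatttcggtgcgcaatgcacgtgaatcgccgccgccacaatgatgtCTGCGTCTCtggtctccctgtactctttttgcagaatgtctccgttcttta
ccch-1, chrV:11533262-11533382: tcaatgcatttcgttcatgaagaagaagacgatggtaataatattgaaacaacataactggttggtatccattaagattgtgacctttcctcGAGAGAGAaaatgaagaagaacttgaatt
egl-27, chrII:6838294-6838414: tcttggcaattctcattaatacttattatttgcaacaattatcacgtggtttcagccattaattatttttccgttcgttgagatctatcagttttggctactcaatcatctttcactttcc
The runs at epg-9, Y111B2A.12 and Y43F8B.2 share the word CTGCGTCTC, the reverse complement of GAGACGCAG, in which the word GACGCA overlaps with both ACGCAG and the reverse complement of CGTCTC. At epg-9 it occurs more than once. The runs at W06H8.6 and dhc-4 hold no match to any of these words, and neither does the low-signal run in egl-27.

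Intronic peaks were mostly weak. Signal, the authors' value per peak in the deposited list, ranged from 45.3 to 524 among members with a median of 66.9, against a median of 96.8 for autosomal promoter peaks and 68.9 for intergenic ones. By signal the median member ranked 3164.5 of 4904, while the median promoter peak ranked 2000.5 and the median intergenic peak 3045.5. Among the 500 highest-signal peaks of the list 14 were members, which is 2.8% of them, whereas 14.9% of promoter peaks and 5.30% of intergenic peaks reached the same group. The −log10 q value that accompanies each peak sat at its ceiling of 3.74 in 43.2% of members and 65.6% of promoter peaks, so it could not order the strongest sites.

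The intronic share of autosomal peaks grew as signal declined. It was 3.35% (95% exact Clopper-Pearson interval 1.84 to 5.56) in the highest-signal decile of the list, 12.9% (9.88 to 16.6) in the fifth and 18.7% (14.9 to 23) in the lowest. The intergenic share grew too, from 11.2% to 33.2%, while the promoter share fell from 82.3% to 40.3%. These intervals, like all that follow, cover counting error only and treat peaks as independent. The relaxed pooled list continued the trend beyond the reproducible set. There 21.7% of autosomal calls ranked 4905 to 9904 were intronic by the same rule, and 34% of those ranked 24905 to 29904. Eligible intronic sequence, meaning autosomal bases that could have met the rule, covered 27.2% of autosomal length.

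**Figure D1:**
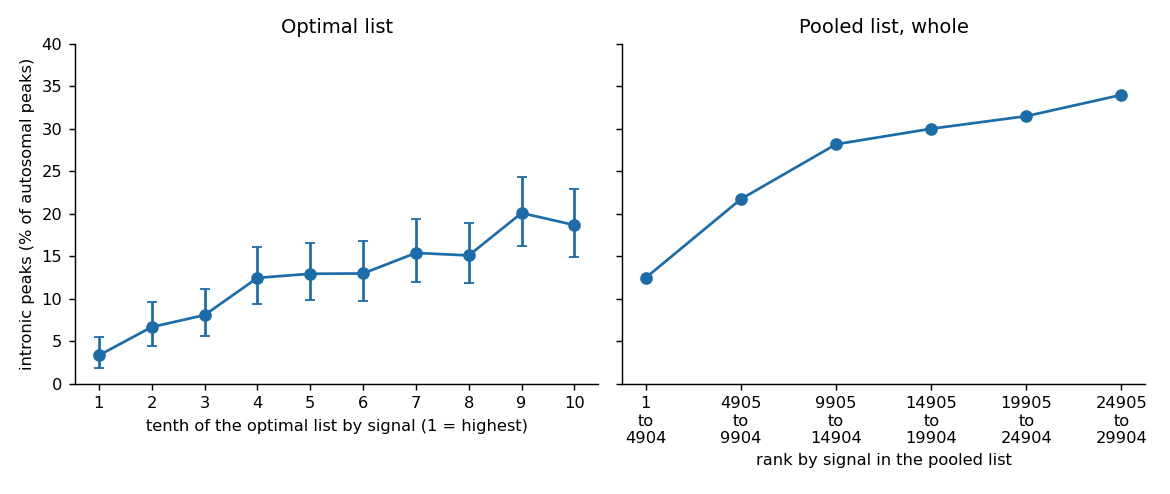
Share of autosomal peaks that are intronic, in percent, by decile of the optimal list (left, bars are 95% exact intervals) and by rank band of the whole pooled list (right, no intervals drawn). The share rises from 3.35% in the highest-signal decile to 18.7% in the lowest, and reaches 34% in the last full band of the pooled list.

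The 20 highest-signal members lay in 18 genes of varied function. The peak of highest signal sat in intron 2 of epg-9, a gene of the autophagy pathway, at chrIV:2601994-2602336. It had a signal of 524 and ranked 29 in the list. In the replicate lists, each on its own scale, its signal was 362 in replicate 1 and 161 in replicate 2. It ranked 27 and 32 there, so both libraries placed it near the top.

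The next were intron 4 of Y111B2A.12 (signal 509, 338 and 169 in the replicates) and intron 5 of W06H8.6 (444, 341 and 106). The peak in mnk-1, a kinase of the MAP kinase-interacting family, had a signal of 417 with 280.4 in replicate 1 and 136 in replicate 2. The peak in dhc-4, a dynein heavy chain gene, lay in intron 31 of 34, within 200 bp of an snRNA gene. It had a signal of 402, with 263 and 132 in the replicates. None of these ranked lower than 137 in either replicate list, the rank of W06H8.6 in replicate 2.

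Several of the strongest hosts held further members. The nuclear hormone receptor gene nhr-19 held a peak of signal 377 in intron 2, with 262 and 113 in the replicates, and 2 weaker ones in the same intron. The gene zfp-1, the worm homologue of the chromatin factor AF10, held 3 members, with signals of 298 and 286 in introns 6 and 11 and another of 100.4. Their replicate ranks were 322 and 88 for the strongest and 266 and 190 for the next, so the replicates ordered them differently.

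The other strong hosts were T28F4.1 (signal 343), larp-1, which encodes a La-related RNA-binding protein (317), Y43F8B.2 (317), the Mediator subunit gene mdt-27 (217) and lag-1, the DNA-binding factor of Notch signalling (217). Below them came ppfr-1, a regulatory subunit of protein phosphatase 4 (206), the AMP-activated kinase subunit gene aakg-1 (205), mpk-1, the ERK MAP kinase (204), Y56A3A.7 (199) and kin-4, a MAST family kinase (199). Of the 20 strongest, 18 were among the highest-signal calls of both replicates, 14 lay in introns of 2000 bp or longer, 4 lay in intron 1 and 13 had a host with a promoter peak as well.

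The exceptions were both in let-526, which encodes an ARID subunit of the SWI/SNF remodelling complex. Its peaks of signal 224 and 203 had replicate 1 ranks of 325 and 254, but overlapped no call in the replicate 2 list. Neighbouring members of let-526, of signal 121 and 98.8, matched replicate 2 calls at ranks 675 and 1197. In all, 22 members overlapped another member and shared a replicate call with it, so adjacent peaks of this kind are not separate observations.

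At the other end, the 5 weakest members lay in C32D5.7, ccch-1, egl-27, soem-1 and ercc-1, the last a DNA excision repair gene. Their signals ran from 45.3 to 45.6. None was among the highest-signal calls of both replicates. The next intronic summits beyond the end of the list, in spv-1 and mnk-1, had signals of 45.23 and 45.21, so the boundary fell within a continuum.

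The replicates supported the members unequally. Taking as many of the highest-signal calls in each replicate list as the optimal list holds, 325 members overlapped such a call in both replicates, which is 65% (60.6 to 69.2), against 76.9% of all optimal peaks. The share was 81.9% for promoter peaks and 70.7% for intergenic peaks. Another 118 members (23.6%) were matched in replicate 1 only, 50 in replicate 2 only, and 7 in neither. Since the optimal list was derived from the same libraries, these shares describe it and test nothing.

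Replicate support followed signal. All 33 members in the third decile of the list were matched in both replicates. In the seventh decile the share was 64.4%, beside 73.6% of promoter peaks, and in the lowest decile it was 12.7% beside 13.1%. Over the 10 deciles the members' share was below that of promoter peaks in 6 and above it in 4. The promoter share lay outside the members' interval in the 2 highest deciles, where 1 and 2 members were unmatched, and inside it in the other 8. Across the 496 members with a call in both replicates the Spearman correlation of the ranks was 0.56, against 0.61 over 879 intergenic peaks and 0.82 over 2342 promoter peaks. These points share their libraries.

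Replicate 2 had no call for 4 members, and these are left out of the ranking that follows. Among the 496 with a call in both, the largest disagreement was in gon-1, which encodes an ADAMTS metalloprotease that shapes the gonad. Its peak ranked 3222 in replicate 1, with a signal of 46.8, and 28613 in replicate 2, with a signal of 3.50. The peak in rib-1, a gene of heparan sulfate synthesis, ranked 3241 and 19100, and that in F53C11.5 ranked 2972 and 18167. All 3 stood high in replicate 1 and low in replicate 2. Replicate 1 gave the better rank for 58.3% of members, close to the 57.7% over all autosomal peaks.

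**Figure D2:**
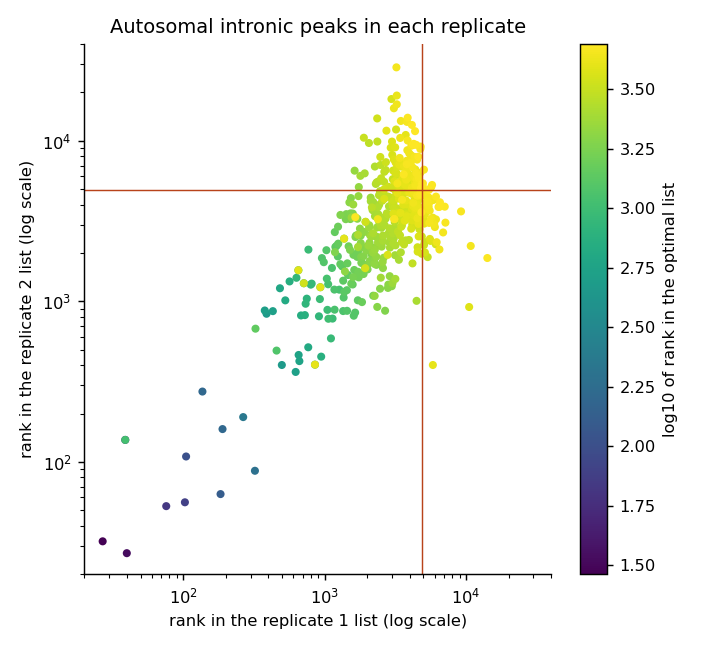
Rank of each member in the replicate 1 list (horizontal, log scale) and the replicate 2 list (vertical, log scale), for the 496 members with an overlapping call in both, coloured by the log10 of the rank in the optimal list. The lines mark rank 4904 in each replicate, and the 325 members in the lower left field were among the highest-signal calls of both.

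Peaks concentrated in long introns. The median member lay in an intron of 3888 bp, in a range from 49 to 21230 bp, while the 68236 autosomal introns with any eligible sequence had a median of 86 bp. Weighting introns by their eligible bases raised that median to 950.0 bp, still below that of the members. Introns of 2000 bp or longer held 361 members in 28% of the eligible sequence. That amounts to 57.4 peaks per Mb (exact Poisson interval 51.6 to 63.6), against 8.61 (7.23 to 10.2) in shorter introns and 22.3 (20.4 to 24.3) over all eligible sequence.

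The gradient ran through the length classes. Introns under 500 bp carried 5.33 peaks per Mb (3.69 to 7.45), those from 1000 to under 2000 bp carried 15.1 (11.7 to 19.2), and those from 2000 to under 5000 bp carried 43.3 (36.7 to 50.8). The 97 introns of at least 10000 bp held 80 members, or 86.9 per Mb (68.9 to 108). The longest introns with a peak were in kin-1, the catalytic subunit of protein kinase A (21230 bp), lin-1, an ETS transcription factor (20948 bp), and Y48C3A.5 (19927 bp). The shortest were in tent-5 (49 bp), Y40B10A.9 (51 bp) and Y71G12B.31 (64 bp).

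Peaks in such short introns extend over the flanking exons. By whole interval, 59 members (11.8%) overlapped an exon, although their summits did not. The summit in Y71G12B.31 lay 3 bp from an exon and that in Y40B10A.9 lay 5 bp from one. The nearest summits on the exonic side, 8 and 21 bp inside exons, were in rpoa-1 and mpc-1.

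Intron 1 of the host transcript held 193 members, which is 38.6% (34.3 to 43), although it made up 20.2% of eligible bases. The density was 42.6 peaks per Mb (36.8 to 49.1) in intron 1 and 26 (21 to 31.9) in intron 2. It was 17.2 (12.8 to 22.6) in intron 3 and 11.1 (8.29 to 14.6) in introns 6 to 10. Counting the lowest intron number in any transcript of the host, 269 members lay in intron 1, and 19 lay in the last intron of the host transcript.

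Length and intron number were then crossed. Among introns of 2000 to under 5000 bp, intron 1 held 67.7 peaks per Mb (52.1 to 86.4) and later introns 34.3 (27.5 to 42.3). Among introns of 1000 to under 2000 bp the values were 26.3 (16.1 to 40.7) and 12.8 (9.46 to 17), with intervals that overlap. They overlapped as well in the other 4 classes, at 8.74 against 4.84 under 500 bp, 7.66 against 6.87 from 500 to under 1000 bp, 75 against 65.3 from 5000 to under 10000 bp and 104.6 against 73.1 above. The longer an intron, the more of it also lies away from exons and promoter windows, and the part of that distance in these densities was not tested.

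**Figure D3:**
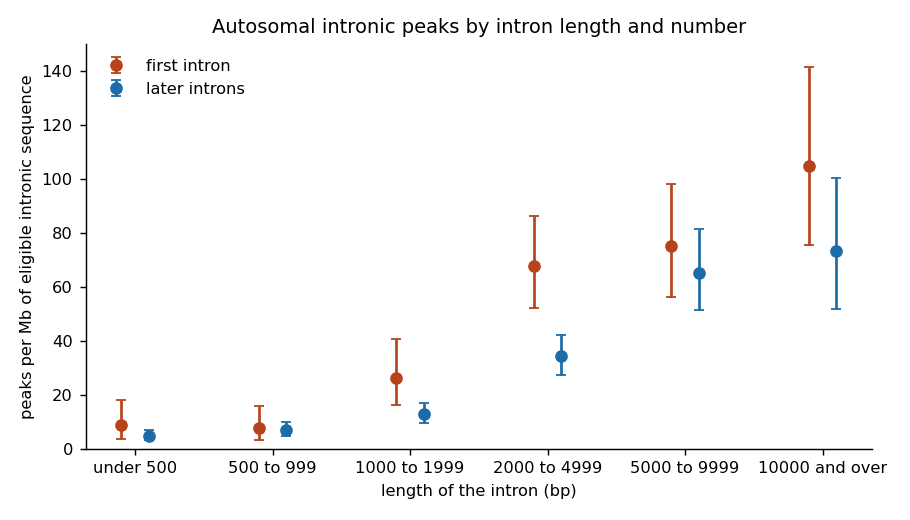
Peaks per Mb of eligible intronic sequence (vertical) by length of the intron (horizontal), for intron 1 and for later introns of the host transcript, with 95% exact Poisson intervals. Above 1000 bp density climbs with length in both, and the intervals of intron 1 and later introns are apart in 1 of the 6 classes, from 2000 to under 5000 bp, at 67.7 against 34.3.

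Within the intron, summits lay a median of 1099.5 bp from the nearest edge and 46% of the way along. Of the 500, 274 (54.8%, 50.3 to 59.2) lay nearer its 5′ edge than its 3′ edge. The nearest annotated 5′ end was at a median distance of 1681.5 bp, and it belonged to the host gene for 454 members (90.8%). For 155 members a 5′ end of the host lay downstream and was its nearest, so the summit was upstream of an internal start. Density was 16.1 peaks per Mb (13.1 to 19.6) under 1000 bp from the nearest 5′ end, 28.9 (25.1 to 33.2) at 1000 to under 2000 bp and 19.97 (14.3 to 27.1) at 5000 bp or more. The rule removed sequence up to 1000 bp upstream of a 5′ end but only 200 bp downstream. The class under 1000 bp therefore held downstream sequence alone, so the distance classes compare unlike sequence. A total of 110 members lay at least 3000 bp from any 5′ end.

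The boundaries of the promoter window had summits on both sides. Just inside the set were unc-76 and Y73B6BL.31, with summits -1007 and -1009 bp from a 5′ end (negative is upstream), and just outside were egl-27 and nhr-62, both at -994 bp. Downstream, tlp-1 and ech-1.2 at 201 and 202 bp were inside, and nhr-136 and asic-2 at 191 and 179 bp were outside. Around tRNA and snoRNA genes the gap was wide. The nearest members, in ppfr-1 and lir-1, lay 544 and 650.0 bp away, while spe-15 and sea-2 were left out at 97 and 185 bp.

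Other classes of RNA gene were not removed. Within 200 bp of one lay 67 members, 51 of them beside a gene of the general ncRNA class, 5 beside an snRNA gene and 2 beside a miRNA gene. Some of the 20 strongest members were among them. Those in W06H8.6, T28F4.1, ppfr-1 and kin-4 lay beside an ncRNA gene and that in dhc-4 beside an snRNA gene. The strongest in let-526 lay inside an antisense RNA gene. Inside such a gene lay 28 members (5.6%), and such genes filled 1.91% of eligible bases. For the 67 within 200 bp no share of eligible bases was computed, so that count has no background beside it. Whether summits inside or near such an RNA gene mark that gene or the host gene was not tested.

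The members fell in 330 host genes, which is 2.23% of the 14813 autosomal protein-coding genes with eligible intronic sequence. Hosts were long genes, with a median length of 9370.0 bp against 2249 bp over those genes. A single member was found in 233 hosts, 2 in 55 and at least 3 in 42. Together the hosts with more than 1 accounted for 267 members (53.4%). In 77 introns, 2 or more members lay together, with a median spacing of 1370.0 bp between neighbours.

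The gene with the most members was fkh-7, which encodes a forkhead transcription factor, with 8 peaks. Of these, 7 lay in its intron 1 of 16465 bp and 1 in intron 4. The strongest, at chrIV:5593895-5594244, had a signal of 166 and replicate signals of 109 and 54.4. The weakest had a signal of 52.4, with 37.4 and 12.6 in the replicates. None of its 8 members thus lay in the highest decile of the list, and 5 of them were among the highest-signal calls of both replicates.

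The phosphatase 4 subunit gene ppfr-1 held 7 members over introns 6 and 7, with signals from 55.6 to 206. The next by count, with 5 each, were led by let-526, ccch-1, a CCCH zinc finger gene, and vhp-1, a MAP kinase phosphatase gene. In vhp-1 the signals ran from 60.2 to 179 over introns 1, 2 and 4, and all 5 were matched in both replicates. In ccch-1 the signals ran from 45.5 to 181 in intron 3 alone, where the strongest and a neighbour overlapped and shared their replicate calls.

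Hosts often had a promoter peak too. Of the 330, 143 (43.3%, 37.9 to 48.9) also held an optimal peak in a promoter window, against 17.1% of the 14813 genes with eligible sequence. A peak at any annotated 5′ end of a gene counted here. Hosts were also longer genes, and the part of gene length and number of 5′ ends in this contrast was not tested. Eligible introns of genes with a promoter peak carried 48.2 members per Mb (42.4 to 54.7), and those of other genes 14.7 (13 to 16.6). Even so, 256 members lay in genes with no promoter peak, among them daf-5, lag-1, mpk-1 and aakg-1.

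Several lists of developmental signalling genes carried more members per Mb of eligible intron than the 22.3 over all genes. Some of these densities rest on few hosts with several members each, which the intervals treat as independent. Of 16 autosomal genes of the TGF-β pathway 2 were hosts, with 7 members and 162 peaks per Mb of their eligible introns (65 to 333). One was daf-5, the Sno/Ski-type regulator of the dauer branch, with 5 peaks of signal 57.7 to 154. In replicate 1 its strongest peak had a signal of 121 and in replicate 2 of 30.7. The other was daf-14, a Smad gene, with peaks of 155 and 57.2. The pathway members crm-1 and drag-1 had none in 4.30 and 3.24 kb of eligible sequence.

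Insulin signalling had 2 hosts of 6 genes, at 105.4 peaks per Mb (38.7 to 230). The insulin receptor gene daf-2 held 3 members in its intron 1 of 11981 bp, with signals of 123, 60.5 and 47.1. The FOXO factor gene daf-16 also held 3, of 82.5, 54.5 and 48.1. The kinase gene akt-1 and the phosphatase gene daf-18 had 1.57 and 1.78 kb of eligible sequence and no member.

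Notch pathway genes had 2 hosts of 16, lag-1 and its co-activator sel-8, with 4 members at 86.6 per Mb (23.6 to 222). The receptor gene lin-12 and the ligand gene apx-1 had none. Signalling kinases outside these pathways had 8 hosts of 41 and 14 members, at 72.0 per Mb (39.4 to 121), led by kin-4, unc-43, which encodes CaM kinase II (signal 177), and pkc-1, a protein kinase C gene (120). The kinase genes dapk-1 and gck-3 had 15 and 9.35 kb of eligible sequence and no member. The EGF, FGF and Ras list had 3 hosts of 20, mpk-1, soc-2 and lin-1, at 31.6 per Mb (8.62 to 81.0), while sos-1 and ksr-2 had none. Of 25 Wnt pathway genes lit-1, the Nemo-like kinase gene, was a host, with 2 members at 25.5 per Mb (3.08 to 92), and cam-1 and mig-1 had none.

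Transcription factors were split into 4 lists. Factors outside the homeobox, bHLH and nuclear receptor families had 11 hosts, 10.6% of the list, and 23 members, at 81.5 per Mb (51.7 to 122), led by fkh-7, klf-1 (signal 155) and zip-3 (105.2). The factors lin-29 and dmd-10 had none in 14.3 and 12.7 kb. Nuclear hormone receptors had 10 hosts of 243 and 13 members, at 46 per Mb (24.5 to 78.7). After nhr-19 came nhr-31 (143) and nhr-23 (132), the latter a receptor required for moulting, while nhr-15 and nhr-88 had none.

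The bHLH genes hlh-30, the TFEB homologue, and hlh-11 held 4 members, at 73.2 per Mb (19.9 to 187), and sbp-1 and ahr-1 held none. Homeobox genes had 2 hosts of 67, irx-1 (signal 57.4) and the labial-type gene ceh-13 (46.3), at 12.4 per Mb (1.5 to 44.8). The homeobox genes zfh-2 and ceh-100 had 20.9 and 17.2 kb of eligible sequence without a member. Of 9 heterochronic genes, which time larval development, lin-42 held 3 members and ain-2 held 1, at 102 per Mb (27.8 to 262), and lin-29 and lep-2 held none.

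Among genes of neuronal signalling, neuropeptide receptors and chemoreceptors had densities whose intervals lay below the 22.3 over all genes, and the other lists had intervals that include it. No member lay in any of 66 neuropeptide receptor genes, whose eligible sequence of 218 kb allows at most 16.9 peaks per Mb at the upper 95% bound. Among them were npr-37 and pdfr-1, with 16.9 and 14.3 kb of such sequence. None lay in the 93 neuropeptide genes, nlp-15 and flp-4 having the most eligible sequence there, in 83.1 kb with an upper bound of 44.4. Synaptic transmission genes had 1 host of 44 (2.27%), ida-1 (signal 102), at 4.82 per Mb (0.12 to 26.8), with unc-13 and egl-8 lacking a member in 22.8 and 16.6 kb. Ion channel genes had 1 host of 30 (3.33%), nca-2 (51.2), at 5.46 per Mb (0.14 to 30.4), and unc-103 and egl-23 had none. Neither of these 2 lists was complete. The glutamate receptor gene glr-4 (82.6), the potassium channel gene twk-4 (68.5) and the synaptotagmin gene snt-3 (73.7) were hosts outside both. The chemoreceptor list had 3 hosts of 1301, srt-52, srh-2 and srap-1, at 3.39 per Mb (0.70 to 9.90), and srt-50 and sra-30 had none. Of these hosts srap-1 may not encode a chemoreceptor, and its 1 member is counted in that density.

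The share of long introns varied among these lists. Introns of 2000 bp or longer made up 53.2% of the eligible sequence of neuropeptide receptor genes and 53.3% of that of signalling kinases. Within such long introns the receptors carried no peak in 116.2 kb, with an upper bound of 31.8 per Mb, and the kinases 125 per Mb (66.8 to 214), against 57.4 over all genes. For the chemoreceptor list long introns made up 8.84% of eligible sequence and carried 38.3 per Mb (7.90 to 112.02), the member in srap-1 included. That interval includes the value over all genes. For axon guidance and neuronal adhesion genes the density in long introns was 34.4 per Mb (12.6 to 75). Members were also sparser on chromosome arms, down to 5.92 per Mb (3.39 to 9.62) on those of V. The part of chromosomal position in the list densities was not tested. The lists overlap, lin-1 and daf-16 each standing in more than 1, and the list densities are descriptions without a test.

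Lists of adhesion and structural genes had intervals that include the value over all genes. Axon guidance and neuronal adhesion genes had 9 hosts of 40, led by sax-7, an L1-type adhesion molecule (signal 133), and unc-14 (90.6), at 35.1 per Mb (17.5 to 62.8). The netrin receptor gene unc-5 and the phosphatase gene ptp-3 had none in 25.1 and 23.4 kb. Body wall muscle and sarcomere genes had 5 hosts of 34, led by the dystrophin gene dys-1 (80.8), the paramyosin gene unc-15 (56.7) and the myosin gene unc-54 (50.3), at 30.5 per Mb (9.91 to 71.2), while unc-89 and unc-52 had none. Epithelial genes had 4 hosts of 19, led by mup-4 (96.7), the cadherin gene hmr-1 (89.9) and vab-10 (62.6), at 45.8 per Mb (16.8 to 99.7), while mua-3 and let-805 had none. Basement membrane genes had 1 host of 18, gon-1 (49), at 12.5 per Mb (0.32 to 69.8), and cle-1 and unc-52 had none.

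The lists closest to the known functions of MEP-1 offered little eligible sequence. No member lay in the 22 autosomal genes of the NuRD, MEC and synMuv chromatin list, of which lin-65 and lin-38 had the most eligible sequence, 7.76 and 6.39 kb. That list had 39.8 kb in all, so its upper bound was 92.6 peaks per Mb, above the value over all genes. The absence of members there depends on how the list was drawn. The gene egl-27, which could be placed in it, was a host with 3 members. It was counted among the transcription factors outside the homeobox, bHLH and nuclear receptor families. Of 34 germline and P granule genes 1 was a host, gld-2, a cytoplasmic poly(A) polymerase gene (signal 89.3), at 49.6 per Mb (1.26 to 276), and mex-3 and fog-1 had none. Ribosomal protein genes, rpl-42 and rpl-14 having the most, offered 3.39 kb of eligible sequence and had no member, and cuticle collagen genes had 1 host of 108, col-72 (75.5), at 25.4 per Mb (0.64 to 142), with none in col-99 or col-87.

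**Figure D4:**
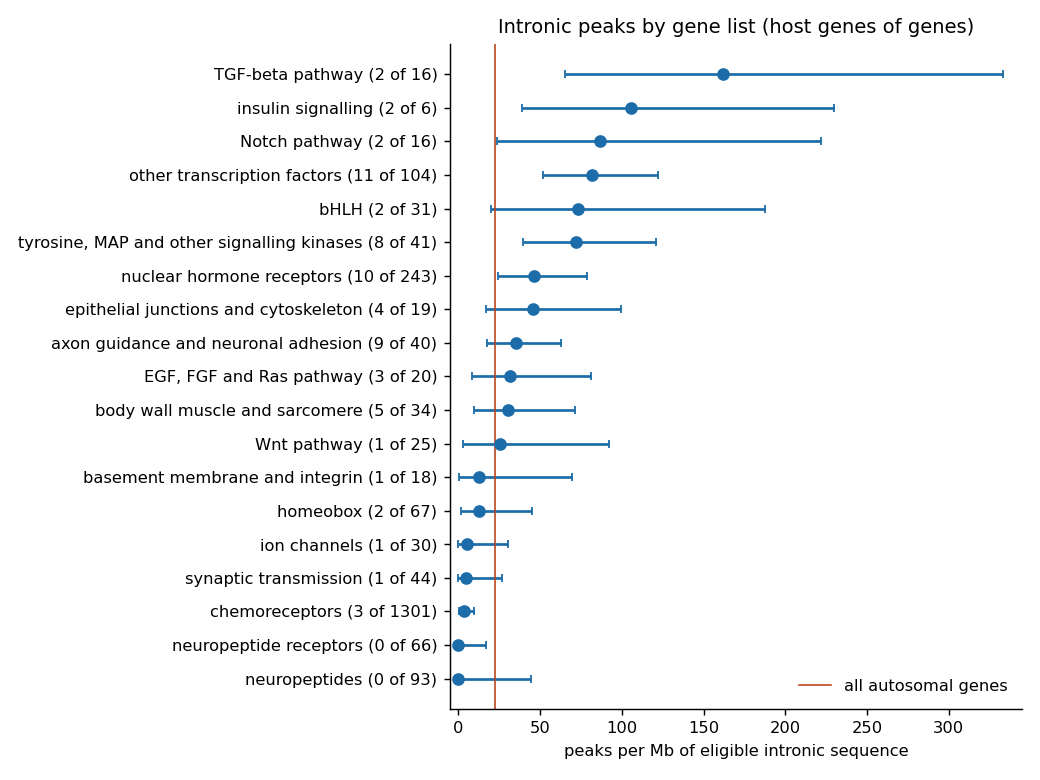
Members per Mb of eligible intronic sequence (horizontal) in the gene lists with at least 40 kb of it, with 95% exact Poisson intervals; labels give the host genes of the genes in each list, and the vertical line marks all autosomal genes at 22.3. The TGF-β, insulin, Notch, other transcription factor, kinase and nuclear hormone receptor lists lie to its right and chemoreceptors and neuropeptide receptors to its left, with intervals that do not reach it. The intervals treat peaks of the same gene as independent, and the TGF-β, insulin and Notch lists rest on 2 hosts each.

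The genes mep-1 and unc-119 were examined in the same way. The endogenous mep-1 gene held no optimal peak, but it offered 0.164 kb of eligible sequence. The gene unc-119, mutated in this strain, hosted 1 member in its intron 1, at chrIII:10903392-10903741, with a signal of 73.2 and replicate signals of 52.6 and 20.5. It ranked 2847 in the list and was matched in both replicates. Whether the mutation or the insertion carried by the strain bears on this peak was not tested.

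Members were denser in chromosome centres. The middle 50% of the autosomes carried 34.7 peaks per Mb of eligible sequence (31 to 38.7) and the arms 13.4 (11.5 to 15.5). The centre exceeded the arms on each of the 5 autosomes. On V the values were 27.7 (20.9 to 36) and 5.92 (3.39 to 9.62), and on III they were 38.2 (29.4 to 48.8) and 19.2 (14.3 to 25). Whole chromosomes ranged from 15.3 (11.9 to 19.2) on V to 26.3 (21.8 to 31.6) on III, and I, II and IV lay within the interval of III.

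Summits stood out in base composition from the introns around them. The median GC content within 50 bp of a member summit was 43.6%, against 35.6% in flanks centred 300 bp away and 31.7% over all windows of the same length that tile the eligible sequence. Promoter summits had a median of 44.6%. Bases in lower case in the RefSeq assembly, which mark repeats and simple sequence, made up a mean of 19.5% of summit windows, 34.6% of flanks and 55.5% of the tiled windows. The 100 strongest members had a median GC of 46.5% and the 100 weakest 40.6%.

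The words from earlier results were less frequent than at promoters. At least 1 of the 5 lay within 50 bp of the summit in 158 members, or 31.6% (27.5 to 35.9), against 48.6% (46.6 to 50.7) of promoter peaks, 34.7% of intergenic peaks and 18.3% of the 115 intronic peaks on X. In the flanks of members the share was 8.3% (6.66 to 10.2), and over tiled windows 7.02%. Members with such a word had a median signal of 80.1 and those without 63.2. The share was 48% in the 100 strongest and 21% in the 100 weakest. By decile of the list by signal, it was lower in members than in promoter peaks in every decile but the third. There it was 54.5% against 49.8%. It was 42.9% against 64.2% in the highest decile, 59.3% against 59.9% in the second and 19.7% against 26.8% in the lowest.

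The difference from promoters lay mostly in 2 of the words, and intergenic peaks shared it. ACGCGC was found in 4.0% of members (2.46 to 6.11) and 14.9% of promoter peaks (13.5 to 16.4), and GAGCGC in 3.8% (2.30 to 5.87) and 14.4% (13 to 15.9). In intergenic peaks they were found in 2.93% and 4.85%. The other 3 differed less. GACGCA was found in 14.8% (11.8 to 18.2) and 18.3% (16.7 to 19.9), ACGCAG in 16% and 17.7%, and CGTCTC in 19.8% and 18.8%. The 9-base word GAGACGCAG, put together from these 3 after they were seen to overlap, was found in 51 members, or 10.2% (7.69 to 13.2), and in 10.4% (9.20 to 11.7) of promoter peaks.

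The repeat GAGAGA ran the other way. It was found in 195 members, or 39% (34.7 to 43.4), against 25.7% (24 to 27.5) of promoter peaks, 44% of intergenic peaks, 7.5% (5.94 to 9.31) of flanks and 4.0% of tiled windows. In every decile of the list by signal its share was higher in members than in promoter peaks, from 50% against 16.6% in the highest decile to 38% against 25.5% in the lowest. It was only loosely tied to signal, with medians of 69.2 for members with it and 65.5 for those without. The repeat GAGAGA can share letters with the reverse complement of CGTCTC. Of the members, 75 held both GAGAGA and one of the 5 words, 120 held GAGAGA alone, 83 held one of the 5 alone and 222 (44.4%) held neither.

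**Figure D5:**
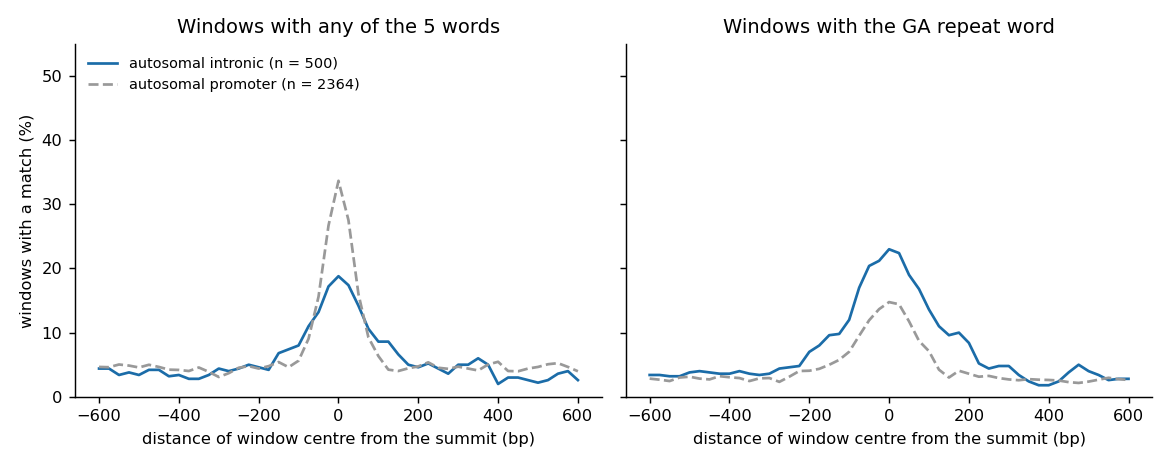
Percent of 51-base windows that hold any of the 5 words (left) or GAGAGA (right), on either strand, by distance of the window centre from the summit in bp, for autosomal intronic and autosomal promoter peaks. At the summit the 5 words reach 18.8% in intronic and 33.7% in promoter peaks, and GAGAGA reaches 23% and 14.8%.

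The remaining words were no more frequent at summits than in flanks beyond counting error. The GATA factor word TGATAA was found in 8.6% of members, 8.7% of flanks and 8.14% of tiled windows, and in 4.99% of promoter peaks. The bHLH word CACCTG was found in 3.0% of members (1.69 to 4.90), 2.1% of flanks and 1.57% of tiled windows, and the AP-1 word TGACTC in 3.6% (2.15 to 5.63), 3.7% and 1.85%. Words rich in A and T were scarcer at summits than beside them. ATTGTT, a Sox word, was found in 8.2% and 12.6%, TAATTA, a homeodomain word, in 2.6% and 6.3%, and TTTTTT in 27% and 43%. A match describes these letters only and does not show that a factor binds there.

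Of the 20 strongest members, 10 held one of the 5 words, 9 held GAGAGA and 15 held either. In width members were uniform, since 84% spanned exactly 350 bp against 57% of promoter peaks. The 77 narrower members had a median signal of 141, those of exactly this width 62.5, and 3 members were wider.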

How the data were processed

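Chromatin immunoprecipitation with sequencing of eGFP-tagged MEP-1 was carried out on whole L1 larvae in 2 biological replicates of 1 group, with fragments of 150 to 350 bp per the labels. The deposited lists give, per peak, the authors' signal value and the authors' −log10 q value. Per the deposited file lists, relaxed lists (30000 and 29149 peaks in the replicates, 30000 pooled) and a control went into an irreproducible discovery rate step that gave the optimal list. Its 4904 peaks have the 4904 highest signals of the pooled list. Not given in the sources used here are the aligner, the caller, their versions and the threshold. Depth is unknown, since no read counts are held in the lists, and no control library was analysed. Lists on ce10 were not used, so that builds were not mixed.

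Summits (start plus offset) were classed against the 19973 protein-coding genes of Ensembl release 115. The host was the gene with the shortest intron over the summit, and the intron number came from its transcript with the most exons there. A replicate match was any overlap with 1 of its 4904 highest-signal calls. Words were searched on both strands of the RefSeq WBcel235 sequence. Intervals are exact at 95%; nothing was tested, so no p-value is given. The class assignment was checked at positions drawn from the annotation, and the intron assignment on a made-up gene. Python 3.11.15, numpy 2.4.6, pandas 2.3.3, scipy 1.17.1 and matplotlib 3.10.9 were used.

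The members, the 24 gene lists and 5 of the 12 words were chosen with earlier results of these data known. The genes named are the hosts of the 20 highest and the 5 lowest members, the 5 hosts with most members, those of the 3 longest and 3 shortest introns, up to 3 hosts and 2 genes without a member per list, the 3 largest replicate gaps, 2 summits on each side of each threshold, mep-1 and unc-119. Any other gene named was chosen after its values were seen. One gene that the rule names is not reported here. Alternatives were other promoter windows, outermost 5′ ends, the higher-signal 50% of the list, each replicate alone, exons of every biotype, whole peaks free of exons, 500 bp from tRNA and snoRNA genes, the lowest intron number, 50% reciprocal overlap, a word window of 100 bp and RefSeq gene models.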

Additional observations from a re-analysis of the deposited data

How the results depend on the processing

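The size of the set depends on the promoter definition. It was 597 peaks in 387 hosts with windows reaching 500 bp upstream, 358 in 242 with 2000 bp and 720.0 in 463 with outermost 5′ ends only, against 500 in 330. Counts were taken as close within 1.5 times the reported count, replicate support within its exact interval and other values within 1 SD of the 2 single-replicate values. By these limits 60 of 92 alternative values were close and 32 moved. With a promoter window reaching 500 bp upstream, median intron length was 3415 bp, density 24.3 peaks per Mb and the share with any of the 5 words 33.5%. With 2000 bp upstream these were 4410.5 bp, 19.7 and 26.8%. With outermost 5′ ends only they were 3179 bp, 28.6 and 34.7%, with 42.5% in intron 1 and a median rank of 2991.5. In the higher-signal 50% of the list there were 177 peaks in 133 hosts, at 7.89 per Mb. Median intron length was 4309 bp, median rank 1705, replicate support 97.2%, word share 42.4% and GC 45.5%.

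Whole peaks free of exons gave 40.8% in intron 1, 4629 bp, rank 3037 and 19.6 per Mb. Exons of every biotype gave 21.4 per Mb, the lowest intron number in any transcript 53.8% in intron 1, and 50% reciprocal overlap 53.2% replicate support. A word window of 100 bp gave a word share of 44.8% and GC of 42%. RefSeq gene models, chosen after seeing the data, gave 515 peaks in 337 hosts and moved no value beyond these limits.

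Each replicate alone gave 468 to 493 peaks in 310 to 328 hosts, 36.8% to 39.6% in intron 1, intron lengths of 3974 to 4213 bp, median ranks of 3053 to 3206, 20.9 to 22 per Mb, word shares of 29.8% to 31.4% and GC of 42.6% to 44.6%. The share matched in both replicates has no value with 1 replicate. No paired analysis was possible because there is 1 group. Without read counts, depth sets no interval here, and a peak absent from the list cannot be separated from one too weak to call.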
